A study of Mus musculus with 14 samples.

Results

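The 6 collagen IV genes of the mouse lie in 3 pairs whose genes start close to each other and run in opposite directions, Col4a1 with Col4a2, Col4a3 with Col4a4 and Col4a5 with Col4a6. Their H3K27ac sites were taken from the single list of sites found across all samples, as every site that overlapped the body of 1 of the genes or lay within 20 kb of the outer ends of a pair. This gave 148 of 122228 sites, of which 128 were at Col4a1/Col4a2, 15 at Col4a3/Col4a4 and 5 at Col4a5/Col4a6. H3K27ac, acetylated lysine 27 of histone H3, is found at active promoters and enhancers.

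The cells were immortalised mouse embryo fibroblasts (iMEF) in which floxed Ash2l alleles had been recombined by Cre-ER, so that all groups, controls included, relied on human ASH2L fused to FKBP12F36V and delivered by a lentivirus. ASH2L is a core subunit of the complexes that methylate lysine 4 of histone H3, and dTAG-13 binds the tag and brings about degradation of the fusion protein. The study asked how chromatin marks follow the loss of ASH2L. The study used cells of the clone NG3 for ChIP-seq, so that the groups represent a single clone. The 12 H3K27ac libraries comprised 2 libraries without dTAG, labelled WT, and 2 each after 30 min, 2 h, 4 h, 8 h and 16 h of dTAG. Of the 2 input libraries, 1 was without dTAG and 1 was from 16 h. The list analysed here gave positions only, joined over all samples. It holds no reads or depth per library, although the methods name a minimum of raw reads sought per ChIP sample, and no replicate error can be given for any value below. Changes over time were not analysed here.

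Collagen IV forms the network of basement membranes, the thin sheets of matrix beneath epithelia and endothelia and around muscle cells. Its chains, encoded by the 6 genes, assemble as trimers. The Col4a1 and Col4a2 chains form the trimer found in nearly all basement membranes, and fibroblasts in culture are known to secrete it. The Col4a3, Col4a4 and Col4a5 chains form the trimer of the mature glomerular basement membrane, where podocytes make them, and Col4a5 also assembles with Col4a6, among others in smooth muscle. In each pair, transcription of the neighbours starts from a common region, a bidirectional promoter.

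The promoter sequences are shown first, because the comparison of the pairs starts there. The annotated 5′ ends of Col4a1 and Col4a2 overlapped by 22 bases, and the stretch of 30 bases printed for this pair lies at the edge of that overlap, in the first exon of Col4a1 (chr8:11312781-11312810). For Col4a3/Col4a4 the middle 30 of the 71 bases between the 5′ ends of the genes are given (chr1:82586871-82586900). For Col4a5/Col4a6, the 266 bases are the part of an H3K27ac site upstream of Col4a5 (chrX:141475104-141475369), between the genes, up to the start of Col4a5 in RefSeq, which lies further upstream than the 5′ end in GENCODE used for the distances below. All are from GRCm38, 5′ to 3′ on the plus strand. Capitals mark matches on either strand to any of 4 short motifs. The GC box was searched as GGGCGG. The second motif was the CCAAT box, under that spelling, which is common near start sites. The TATA box was searched for by the letters TATAAA. The fourth was the CTC box, with the letters CCCTCCCC, which has been described for the promoter of human collagen IV genes. The Col4a1/Col4a2 stretch was cut around its match to this motif, so its capitals were fixed by that choice. Motif matches can therefore not be compared between the printed stretches, and they are counted in equal windows below.
Col4a1/Col4a2 promoter: ttggcgctgccCCCTCCCCtcggcagtgcg
Col4a3/Col4a4 promoter: gctggccactccccccaccctgtgcagcca
Col4a5/Col4a6 promoter: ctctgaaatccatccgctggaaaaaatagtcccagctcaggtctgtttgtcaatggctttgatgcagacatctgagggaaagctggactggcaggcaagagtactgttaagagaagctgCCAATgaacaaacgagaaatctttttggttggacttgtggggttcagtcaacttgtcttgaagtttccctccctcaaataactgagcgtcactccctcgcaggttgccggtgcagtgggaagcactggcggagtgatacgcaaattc

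The shared promoters of the pairs carried a wide site, no site and a site at 1 of the 2 genes, respectively. At Col4a1/Col4a2, a site of 4235 bp (chr8:11310633-11314867) covered the 5′ ends of both genes and reached 2193 bp into Col4a1 and 2062 bp into Col4a2. It was wider than 99.4% of all sites, and its middle lay 76 bp from the Col4a1 and 55 bp from the Col4a2 5′ end. At Col4a3/Col4a4, the 5′ ends of the coding transcripts lay 126 bp apart in a gap of 17768 bp without a site. The closest sites started 8144 bp inside Col4a4 and 9498 bp inside Col4a3. At Col4a5/Col4a6, the 5′ ends were 1308 bp apart, and a site of 1103 bp (chrX:141475104-141476206) extended from 281 bp upstream to 821 bp downstream of the Col4a5 5′ end. It ended 1028 bp short of the Col4a6 5′ end, which was not covered by a site. Thus 3 of the 6 genes, Col4a1, Col4a2 and Col4a5, had a site whose middle was within 1 kb of a transcription start site (TSS), compared to 54.7% of 21755 protein-coding genes.

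**Figure D1:**
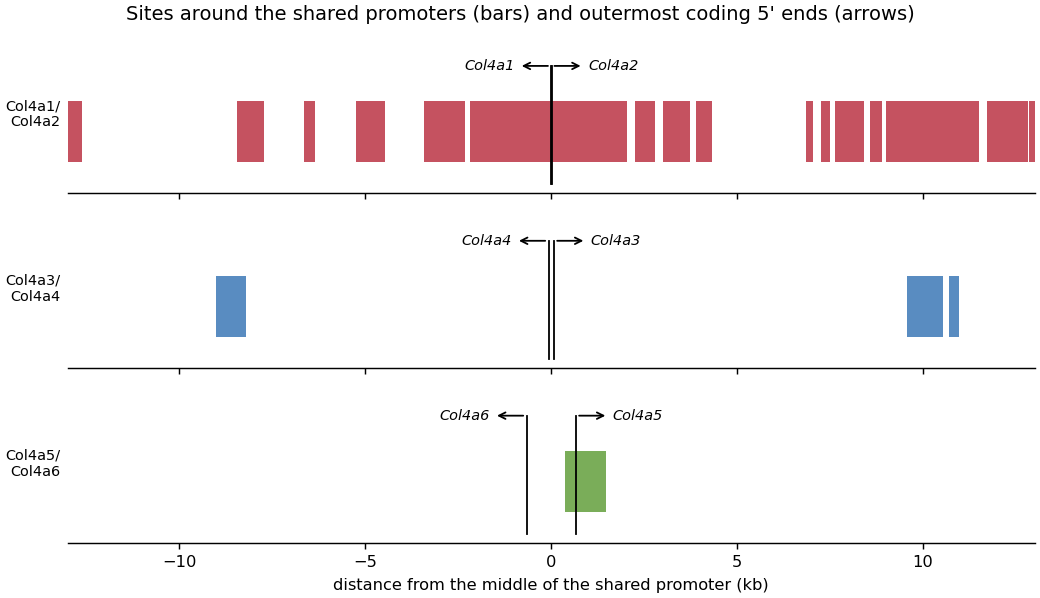
Sites (bars) and the outermost coding 5′ ends (vertical lines with arrows in the direction of transcription) within 13 kb of the middle of each shared promoter, with the distance in kb on the horizontal axis. A bar spans both arrows at Col4a1/Col4a2 and the Col4a5 arrow alone at Col4a5/Col4a6, while the arrows of Col4a3/Col4a4 stand in a gap of 17768 bp.

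To place the pairs among other bidirectional promoters, protein-coding genes on opposite strands that pointed away from each other and had 5′ ends at most 1 kb apart were collected. Of 1158 such pairs, 90.7% had a site within 1 kb of a 5′ end (95% Wilson interval 88.9 to 92.2%, counting error only), and 108 had none, Col4a3/Col4a4 among them. A gene could be in more than 1 pair, whereas the interval treats the pairs as independent. Both 5′ ends were inside a site in 642 pairs (55.4%), as for Col4a1/Col4a2. Col4a5/Col4a6 fell outside this definition because of its distance. When up to 2 kb were allowed, a limit chosen after the data were seen, 1310 pairs were found and 88.6% had a site. In this wider set, 312 pairs (23.8%) had 1 of the 5′ ends inside a site, as for Col4a5/Col4a6.

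The sequence around the promoters differed as well. Within 1 kb of the Col4a1 and Col4a2 5′ ends there was 1 CpG island, of 1685 bp, and no island was found at the other pairs. The central 300 bp had a GC content of 74.0% with 37 CpG dinucleotides at Col4a1/Col4a2 and 63.7% with 15 at Col4a3/Col4a4. At Col4a5/Col4a6 it was 31.0% with 1, in bases between the 5′ ends and outside the site. Windows from 250 bp upstream to 50 bp downstream of the 5′ ends were also taken. The Col4a5 window had 52.7% GC with 11 CpG dinucleotides and that of Col4a6 48.3% with 3. Over all protein-coding genes the medians of such windows were 55.3% and 12. The median of the centres of the 1158 pairs, which do not include Col4a5/Col4a6, was 63.0% with 24 CpG dinucleotides. Col4a3/Col4a4 was therefore close to this median in GC content but had fewer CpG dinucleotides. Of the 1158 pairs, 1068 had a CpG island, and of these 93.4% had a site. Among the 90 pairs without an island it was 58.9%.

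The 4 motifs were counted in the same central 300 bp. Col4a1/Col4a2 had 2 GC boxes, 1 CCAAT box and 1 CTC box, and no TATA box. The centres of Col4a3/Col4a4 and Col4a5/Col4a6 matched none of the 4 motifs. Among the 1158 pairs, 62.8% had a GC box, 37.0% a CCAAT box, 4.49% a TATA box and 10.1% a CTC box. In a window from 250 bp upstream to 50 bp downstream of the Col4a5 5′ end, where the site lay, the GC, CCAAT and CTC boxes were each matched once. Among such windows of all protein-coding genes these motifs were found in 44.2%, 38.8% and 11.5%. For Col4a6 the window had 1 GC box, and those of Col4a3 and Col4a4 had no match.

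Beyond the promoter, sites covered much of Col4a1 and Col4a2. The window of 290865 bp (chr8:11178423-11469287) had 44.0 sites per 100 kb, which was 9.17 times the rate on chromosome 8 (4.80 per 100 kb), and 35.2% of its bases were in sites, compared to 3.35% of the chromosome. Of the 128 sites, 115 had their middle in an intron and more than 1 kb from a TSS, 6 were within 1 kb of a TSS, 6 were exonic and 1 was in the flank. The widths had a median of 489.5 bp with quartiles of 302 and 985 bp, compared to 401 bp with quartiles of 265 and 723 bp for all sites. A width above 2 kb was reached by 13 of the 128 sites (10.2%), compared to 4.33% of all sites.

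The sites stood close together. The median gap between neighbours within the genes was 427 bp, compared to 1044 bp over the whole list. Of 126 gaps, 91 (72.2%) were below 1 kb, compared to 49.4% over the whole list. When sites less than 1 kb apart were joined, 37 runs resulted. The runs with most sites had 23 each, in Col4a1 (chr8:11248913-11276713, 27801 bp) and in Col4a2 (chr8:11368841-11401508, 32668 bp). Only 29 of 61769 runs of the list held more sites. The largest gap within the genes was 12719 bp in Col4a1 (chr8:11230517-11243235).

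Col4a1 overlapped 66 sites (57.7 per 100 kb) and Col4a2 62 (45.4 per 100 kb). Of 2489 protein-coding genes of at least 100 kb, 17 had a higher rate than Col4a1 and 47 a higher rate than Col4a2, and the median was 4.06 per 100 kb. When each gene was divided into 10 parts of equal length, every part of Col4a1 had sites, from 2 to 10 per part. In Col4a2 the first 8 parts had 5 to 11 sites and the last 2 had 0. A stretch of 32894 bp without a site covered the 3′ end of Col4a2, and another of 29023 bp covered that of Col4a1. In the 100 kb beyond the genes there were 5 sites on the Col4a1 side and 4 on the Col4a2 side.

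**Figure D2:**
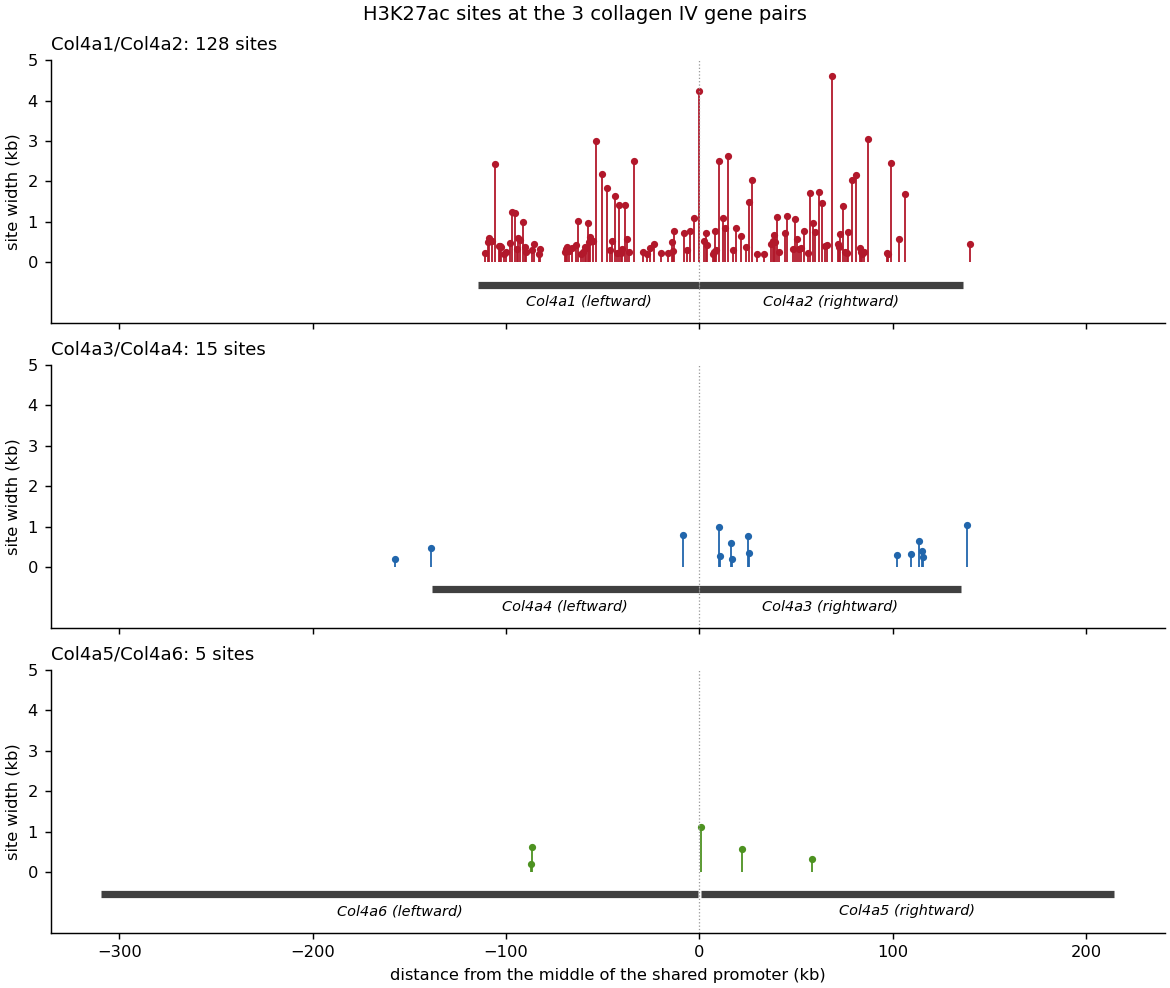
Each point is a site, placed by the distance of its middle from the middle of the shared promoter in kb, with its width in kb on the vertical axis. Grey bars are the gene bodies. The 128 sites of Col4a1/Col4a2 fill both genes up to the 3′ part of Col4a2, whereas Col4a3/Col4a4 had 15 sites and Col4a5/Col4a6 had 5.

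Long introns near the 5′ ends held most of the intronic sites. In Col4a1, introns 1 and 2 (44859 and 20501 bp) held the middle of 22 and 15 sites. In Col4a2, introns 3 and 4 (40592 and 44304 bp) held 25 and 30. Per 100 kb this was 49.0 and 73.2 sites in Col4a1, whose whole body had 57.7. For the introns of Col4a2 it was 61.6 and 67.7, compared to 45.4 over the whole body. The widest site of the pair, of 4595 bp, was in intron 4 of Col4a2, 68.8 kb from the shared promoter (chr8:11379319-11383913). It was followed by a site of 3037 bp in intron 6 of Col4a2 (chr8:11398472-11401508), which also covered 3 coding exons. Next were 2987 bp in intron 2 of Col4a1 (chr8:11258056-11261042) and 2638 and 2494 bp in intron 3 of Col4a2 (chr8:11326582-11329219 and chr8:11321823-11324316). Sites reached 25 of the 52 coding exons of Col4a1 and 6 of the 47 coding exons of Col4a2.

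In addition to the shared promoter, 5 sites lay within 1 kb of TSSs annotated inside Col4a1, where shorter transcripts start. The widest, of 2499 bp (chr8:11277724-11280222), was in intron 1, with its middle 683 bp from such a TSS. The others measured 1227, 391, 390 and 276 bp. Near the window ends, sites of 218 and 507 bp were the first ones within the 3′ part of Col4a1, where the antisense gene Gm15418 also runs. At the other end, a site of 1688 bp was the last one in Col4a2, in intron 20, and a site of 460 bp (chr8:11452785-11453244) lay between the 3′ ends of Col4a2 and Rab20. The antisense gene Gm15419 overlapped 5 of the sites in Col4a2. H3K27ac has no strand, so sites in such stretches cannot be assigned to either gene.

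Col4a3/Col4a4 had sites in its introns but at the rate of its chromosome. The window of 313637 bp (chr1:82428423-82742059) had 4.78 sites per 100 kb, compared to 4.67 on chromosome 1, and 2.43% of its bases were in sites, compared to 2.79%. The sites were unevenly divided between the neighbours. Col4a3 overlapped 11 sites and Col4a4 a single one, of 799 bp in intron 1 (chr1:82577907-82578705). The 129484 bp from this site to the 3′ end of Col4a4 had no site.

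In Col4a3, 6 sites were in intron 1, at 10.0 to 25.8 kb from its 5′ end, and 5 were in the 3′ part, separated from the first by a gap of 76071 bp. The widest intronic sites were of 989 bp (chr1:82596474-82597462) and 770 bp (chr1:82611587-82612356), followed by sites of 590 and 391 bp. The last site within Col4a3 had 264 bp (chr1:82702470-82702733) and was in intron 43. No site of the pair was wider than 2 kb. The non-coding gene C430014B12Rik, which runs on the opposite strand through the 3′ part of Col4a3, overlapped 4 of the sites in Col4a3. The 3 flank sites included the widest of the window, with 1054 bp, within 1 kb of the TSSs of Mff and C430014B12Rik (chr1:82724868-82725921). Mff encodes a mitochondrial fission factor. The flank site of 200 bp was in Rhbdd1, and that of 462 bp was 26 bp beyond the 3′ end of Col4a4.

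Col4a5/Col4a6 was sparse. Its window of 563832 bp (chrX:141145403-141709234) had 0.887 sites per 100 kb, compared to 1.26 on the X chromosome, and 0.502% of its bases were in sites, compared to 0.681%. Apart from the promoter site, Col4a5 had sites of 581 bp (chrX:141496392-141496972) and 335 bp (chrX:141532953-141533287) in intron 1. Col4a6 had sites of 200 bp (chrX:141387733-141387932) and 614 bp (chrX:141388045-141388658) in intron 2, 85.7 to 86.2 kb from its 5′ end. The 100 kb beyond either gene had 0 sites.

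The 4 intronic sites of this pair consisted largely of repeats. Between 53.3 and 97.0% of their bases were masked as repeats, compared to 8.88% of the promoter site. Of all sites, 9.73% had more than 50% repeat bases, and of those on the X chromosome 13.7%. At Col4a1/Col4a2 it was 3 of 128 sites and at Col4a3/Col4a4 it was 0 of 15. Windows of 75 bases, taken every 25 bases along the sites, were searched for exact copies elsewhere on chromosomes 1 to 19 and X. For Col4a5/Col4a6 none of 102 windows had such a copy, for Col4a3/Col4a4 none of 268, and for Col4a1/Col4a2 it was 9 of 3787.

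**Figure D3:**
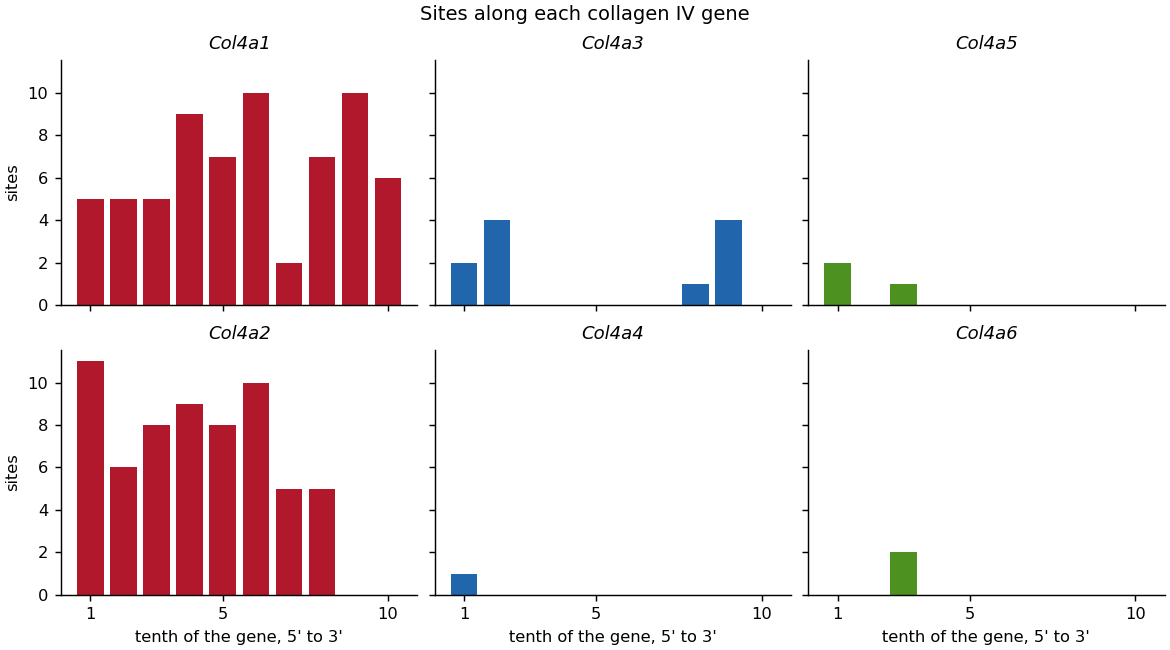
Number of sites in 10 parts of equal length from the 5′ to the 3′ end of each gene, by the middle of the site. Col4a1 had sites in every part and Col4a2 in the first 8, whereas Col4a4 had 1 site in all and Col4a6 had 2.

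The middle 200 bp of the widest intronic sites of 4 genes are printed to show the sequence under such sites, with matches on either strand to TGANTCA (an AP-1 motif), GGAATG (a TEAD motif) and TGTGGT (a RUNX motif) in capitals. They lie at chr8:11259450-11259649 (Col4a1), chr8:11381517-11381716 (Col4a2), chr1:82578207-82578406 (Col4a4) and chrX:141496583-141496782 (Col4a5), on the plus strand of GRCm38, and contain no annotated exon. The same stretches of Col4a3 and Col4a6 had no match to these motifs and are not printed.
Col4a1 intron 2: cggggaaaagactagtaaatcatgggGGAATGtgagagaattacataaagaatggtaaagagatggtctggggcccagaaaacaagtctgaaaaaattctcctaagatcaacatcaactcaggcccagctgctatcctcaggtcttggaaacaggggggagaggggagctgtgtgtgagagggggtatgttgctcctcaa
Col4a2 intron 4: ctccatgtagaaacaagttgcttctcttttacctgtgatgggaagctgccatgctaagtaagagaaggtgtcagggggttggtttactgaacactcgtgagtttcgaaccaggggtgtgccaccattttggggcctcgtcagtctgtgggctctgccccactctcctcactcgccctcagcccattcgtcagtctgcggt
Col4a4 intron 1: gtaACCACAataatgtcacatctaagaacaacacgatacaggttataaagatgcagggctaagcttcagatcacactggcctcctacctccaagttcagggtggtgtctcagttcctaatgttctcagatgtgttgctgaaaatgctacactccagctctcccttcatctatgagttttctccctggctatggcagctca
Col4a5 intron 1: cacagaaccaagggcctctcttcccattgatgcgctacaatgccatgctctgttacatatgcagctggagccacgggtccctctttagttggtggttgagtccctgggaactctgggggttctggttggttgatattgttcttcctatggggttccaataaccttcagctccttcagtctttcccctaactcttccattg

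In the middle 200 bp of the 115 intronic sites of Col4a1/Col4a2, TGANTCA was found in 10 (8.70%), GGAATG in 18 (15.7%) and TGTGGT in 29 (25.2%). Among all sites of the list the shares were 8.10%, 12.3% and 15.7%. The share of TGANTCA was thus close to that of the list. The largest difference was for TGTGGT, and it was not tested. The 10 intronic sites of Col4a3/Col4a4 had TGTGGT in 2 and the other motifs in none, and the 4 of Col4a5/Col4a6 had GGAATG in 1.

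The collagen IV pairs differed in their place among divergent pairs. Of the 1310 pairs at most 2 kb apart, counted with 20 kb on both sides, only Rbks/Babam2 had more sites (168), over genes of 460468 bp in all compared to 250887 bp. This pair was chosen after its values were seen. Col4a3/Col4a4, with 15 sites, ranked 187 by number and Col4a5/Col4a6, with 5, ranked 817, and the median pair had 7. In sites per 100 kb, 10 pairs were above Col4a1/Col4a2. The median pair had 8.13 sites per 100 kb, and 27.1% of pairs had a lower rate than Col4a3/Col4a4 and 4.12% a lower rate than Col4a5/Col4a6. The 3 pairs closest to Col4a1/Col4a2 in summed gene length were Nek11/Aste1 with 12 sites, Mettl15/Kif18a with 11 and Rgs20/Atp6v1h with 3.

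**Figure D4:**
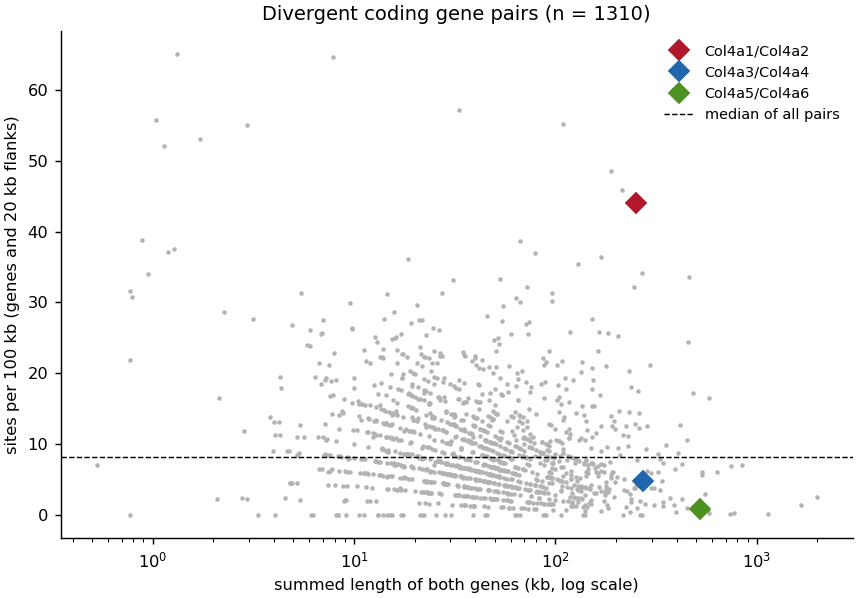
Sites per 100 kb in the genes and 20 kb on both sides against the summed length of both genes (kb, log scale) for 1310 divergent coding pairs (grey points). Col4a1/Col4a2 stands at 44.0 per 100 kb, Col4a3/Col4a4 at 4.78 and Col4a5/Col4a6 at 0.887, with the median of all pairs at 8.13 (dashed line).

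The other genes of the basement membrane were counted for comparison. Of 24 listed genes, 17 (70.8%) carried a site at a TSS, again with its middle within 1 kb, compared to 54.7% of protein-coding genes. The widest such sites were at the laminin genes Lamc1 (2896 bp) and Lamb1 (2471 bp), both narrower than the 4235 bp of Col4a1/Col4a2. Genes without a site there were the laminin genes Lama1, Lama3, Lama5, Lamb3 and Lamc3 and the matricellular genes Smoc1 and Smoc2. The 5′ end of Lama5 was, however, inside a site whose middle lay further away, and such sites were not compared in width. The median rate in the 24 gene bodies was 12.8 sites per 100 kb, compared to 4.00 over all protein-coding genes. The rate was 57.7 for Col4a1 and 1.40 for Col4a5. Smoc2 (60.7), Fbln2 (59.9) and Sparc (59.3), picked by their values, had higher rates than Col4a1.

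Of 22 genes for the synthesis and crosslinking of collagen, 19 (86.4%) carried such a site, compared to 54.7% of protein-coding genes. The widest were at Serpinh1 (9117 bp), which encodes the collagen chaperone HSP47, Loxl4 (2765 bp), a lysyl oxidase, and P3h3 (2397 bp), a prolyl hydroxylase. Colgalt2, Loxl1 and Loxl2 had none, but the 5′ end of Loxl1 was inside a site. Of 10 genes for receptors that bind collagen IV or other matrix proteins, 9 (90%) had a site, compared to the same 54.7%. The widest were at the collagen receptors Ddr1 (6270 bp) and Ddr2 (4327 bp) and the integrin gene Itgav (3901 bp), and Itga2, an integrin subunit for collagen binding, had none.

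The label of the cells was compared with markers. Of 15 fibroblast markers, 11 (73.3%) carried a site at a TSS by the same measure, compared to 54.7% of protein-coding genes. Col1a1 and Prrx1, without such a site, had their 5′ ends inside a site, whereas Dcn and Lum had 0 sites in their bodies. Among markers of other cell types that make collagen IV, 3 of 9 for endothelium, 2 of 6 for podocytes, 3 of 5 for smooth muscle and 1 of 9 for epithelium had a site. Blood markers had one in 2 of 7 cases. Among these lists, the share for smooth muscle (60%) was near that of all protein-coding genes, and the others were below it. Nphs1, Podxl and Wt1 were among the podocyte markers without a site at a TSS. Whether cells of other types contributed to the list was not tested.

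**Figure D5:**
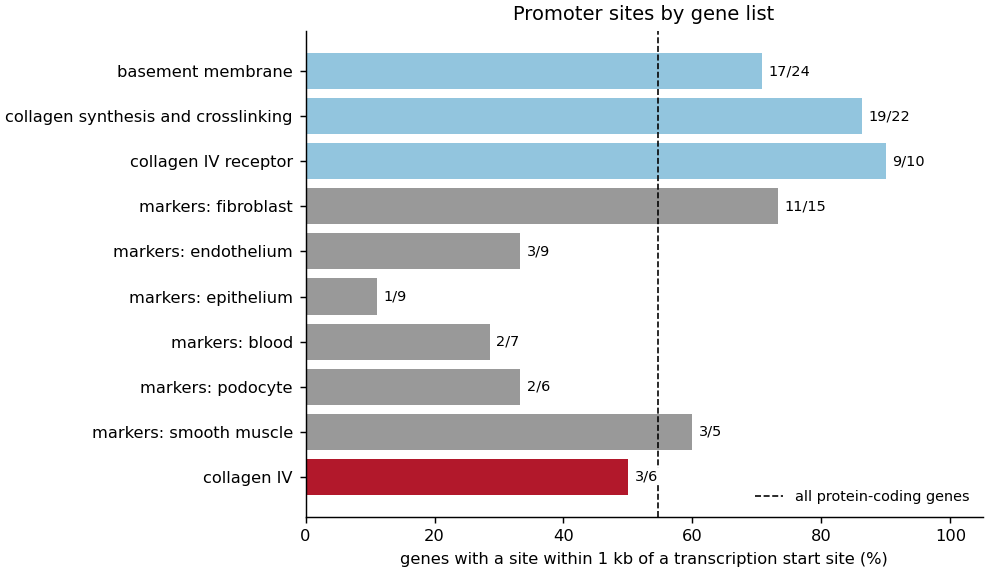
Share of genes (%) with a site whose middle was within 1 kb of a TSS, by gene list, with the number of genes beside each bar. The dashed line is the share of all protein-coding genes (54.7%). The 6 collagen IV genes had a site in 3 cases.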

How the data were processed

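ChIP-seq for H3K27ac was performed on 12 libraries, with 2 input libraries. According to the methods, reads were trimmed (Trim Galore), mapped to mm10 (GRCm38) by BWA and filtered by ENCODE recommendations, after which the authors pooled replicates using Picard and obtained narrow peaks from MACS. The submitters' processing notes also name SAMtools and deepTools, without versions. How peaks were joined into the deposited list, and at which threshold, is not given in the sources used here. If peaks were merged, widths may exceed those of any sample, and a site may come from any time point. The deposited list used here gave chromosome, start and end in bp, with no count or score, so depth per library and counting error cannot be taken from it. Other tables of the study, including changes by time point, were not used here.

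Starts were read as counted from 0 (narrowest width 200 bp) and are printed from 1. The 57 sites outside chromosomes 1 to 19 and X were not used. Genes were from GENCODE M21 (M25 in the study), and sequence and repeat masking from RefSeq GRCm38.p6. A site was at a TSS if its middle lay within 1 kb of one, and introns were numbered from the 5′ end of the longest protein-coding transcript. CpG islands were runs scored 17 for CpG and -1 otherwise, of at least 200 bp, 50% GC and an observed to expected ratio of 0.6. Motif matches on both strands were counted separately for each motif. Sites of loci with up to 12 sites were all named. Otherwise, sites at TSSs, the 5 widest intronic sites and the 2 nearest each window end were named. List genes were named if without a site at a TSS or among the 3 widest, and neighbouring genes if a site lay in or at them. Some list genes that this rule names are not reported here. The members and lists were chosen with earlier results of these data known. Procedures were tested on simulated data. Python 3.11.15, numpy 2.4.6, pandas 2.3.3 and scipy 1.17.1 were used, with matplotlib 3.10.9 for plots.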

Additional observations from a re-analysis of the deposited data

How the results depend on the processing

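No paired analysis was possible because individual samples had no values. Of 78 alternatives for 17 results, 68 stayed within 1.5 times the value given (for the share of divergent pairs, within its interval). The others mostly concerned the joining of sites less than 1 kb apart. With it, Col4a1/Col4a2 had 37 sites, 2 of them within 1 kb of a TSS and 31 intronic, at 12.7 per 100 kb, and Col4a3/Col4a4 had 6 intronic sites and 3.19 per 100 kb. A TSS window of 3 kb gave 22 sites for Col4a1/Col4a2, and the outermost 5′ ends alone gave 1. The share of divergent pairs with a site was 88.6% at up to 2 kb between 5′ ends (chosen after the data were seen) and 92.4% with the 3 kb window. Col4a3/Col4a4 had 0 sites within 1 kb, 3 kb or by any overlap with the 1 kb window. As the list gives no depth, the absence of a site does not show that H3K27ac was absent.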

Other observations

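Sites were also counted in 4 fibrillar collagen genes taken from the list of fibroblast markers, and other fibrillar collagen genes were not counted. Col5a1 overlapped 87 sites (56.8 per 100 kb) and Col1a2 27 (73.5 per 100 kb). For Col3a1 it was 26 (68.1 per 100 kb), compared to 66 (57.7 per 100 kb) for Col4a1. In Col1a1, 98.5% of the bases were in 3 sites, compared to 39.2% in 66 sites for Col4a1 and 41.9% in 62 sites for Col4a2.

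Of the basement membrane genes, Smoc2, which encodes a calcium-binding matrix protein, had no site within 1 kb of a TSS. It nevertheless overlapped 76 sites (60.7 per 100 kb), a rate similar to that of Col4a1. Fbln2 (59.9 per 100 kb) and Sparc (59.3 per 100 kb) also had similar rates, each with a site within 1 kb of a TSS. These genes were chosen after their values were seen, and the differences were not tested.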
